A study of Mus musculus with 12 samples.

Results

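Of 12 libraries from the mouse left ventricle, 4 stood apart from the other 8 in the levels of many genes. They were TAC dantrolene 1, TAC control 1, sham dantrolene 3 and sham control 3, 1 library from each of the 4 groups of 3 mice. They were chosen by a measured value, their position on the first principal component (PC1) of log2 CPM, which held 41.7% of the variance; CPM is a count scaled to the size of its library after normalization by the trimmed mean of M-values (TMM). On this axis TAC dantrolene 1 lay at 76.5, TAC control 1 at 85.6, sham dantrolene 3 at 77.9 and sham control 3 at 34.7, and the other 8 lay between -50.7 and -22.7. The member nearest the gap was sham control 3, and the nearest library outside it was TAC control 2 at -22.7. Because the gene levels themselves chose these libraries, every difference between the 4 and the other 8 is given here as a description, without a test.

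All 12 mice were male C57BL/6 animals, aged 8 weeks at surgery and 12 weeks when the tissue was taken. TAC dantrolene mice had transverse aortic constriction (TAC), a narrowing of the aortic arch that loads the left ventricle with pressure, and received oral dantrolene, a daily 30 mg per kg of body weight, over 4 weeks. TAC control mice had the constriction without the drug, sham dantrolene mice had the operation without ligation and the same drug course, and sham control mice had the sham operation alone. Dantrolene binds ryanodine receptors, which release calcium from the sarcoplasmic reticulum, and the study set its effect under pressure overload against that in unloaded hearts. The labels name no genetic change, and they give no batch, date or RNA quality value that sets the 4 libraries apart. Both TAC members of the set carry the number 1 in the labels and both sham members the number 3.

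Poly(A) RNA sequencing captures messenger RNA by its tail and then breaks it into fragments, so a gene's read count follows both its RNA molecules and their length. The abundant messengers of a ventricle include short ones, such as those for ribosomal proteins, respiratory chain subunits, myoglobin and myosin light chains, and long ones, such as those for titin, myosin heavy chains, the ryanodine receptor and ion channels. A shift in the measured balance between short and long transcripts therefore runs through many pathways at once. Nuclear RNAs, messengers of short half-life and RNA from blood or immune cells are other classes whose share in a heart library can vary.

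**Figure D1:**
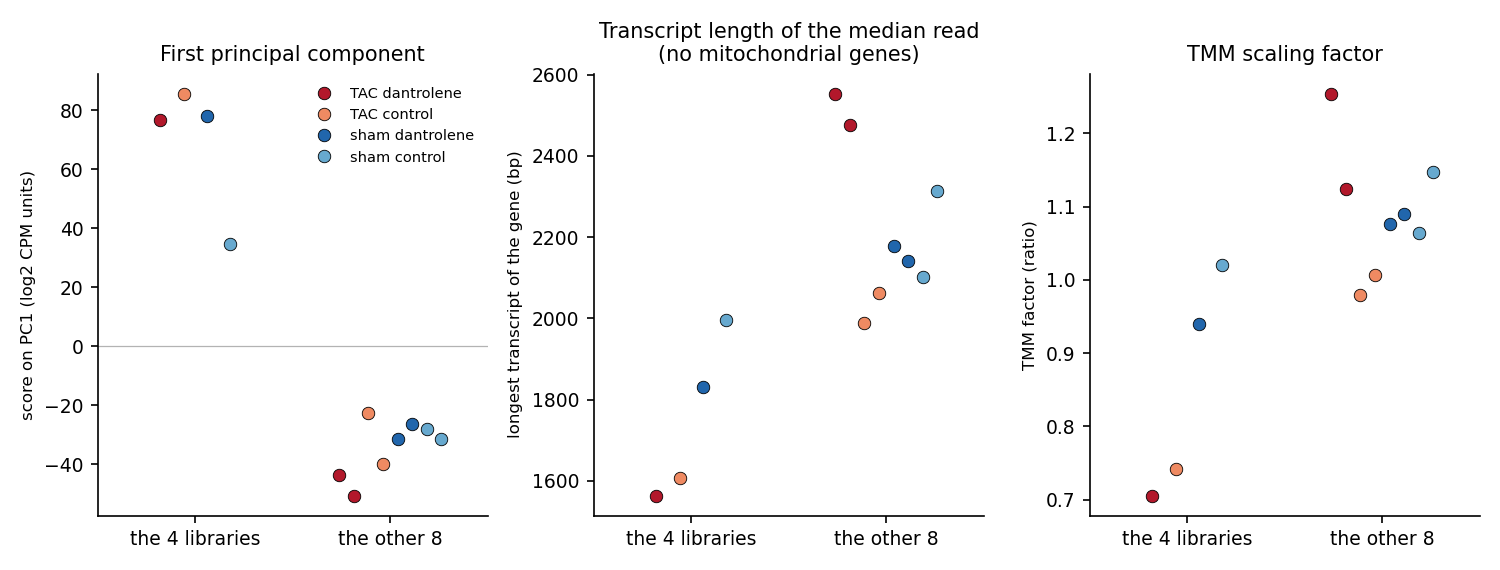
Position on the first principal component, median transcript length behind a read (in bases, mitochondrial genes left out) and TMM scaling factor (no unit) of each of the 12 libraries, with 1 point per library and the 4 members of the set marked. The members lie at 34.7 to 85.6 on the component against -50.7 to -22.7 for the other 8, while sham control 3 overlaps the others in its scaling factor and lies just above the lowest of them in median length.

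Total counts were 25766378 to 35021920 reads in the 4 libraries and 27393064 to 38363106 in the other 8. The TMM factor, which edgeR uses to scale a library to the bulk of its genes, was 0.705 in TAC dantrolene 1, 0.742 in TAC control 1, 0.940 in sham dantrolene 3 and 1.02 in sham control 3, against 0.979 to 1.25 in the other 8. With each read given the length of the longest annotated transcript of its gene, and mitochondrial genes left out, the median length was 1564 bases in TAC dantrolene 1, 1607 in TAC control 1, 1831 in sham dantrolene 3 and 1997 in sham control 3. The other 8 libraries gave 1988, 2160 and 2553 bases as lowest, median and highest. Mitochondrial genes took 7.10% to 10.5% of the reads in the 4 libraries and 1.71% to 22.4% in the other 8, so the ranges overlap. The 14 cardiomyocyte markers summed to 123870 to 197104 CPM in the 4 libraries and to 92453 to 110021 CPM in the other 8, so every library carries the RNA of heart muscle that its label gives.

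For each gene a difference was taken within each group, as the log2 CPM of the group's member of the set minus the mean of its other 2 libraries, and the 4 differences were averaged. A gene is counted here as higher or lower when this average exceeded 1 log2 unit (2-fold) and all 4 groups had the same sign. Of 14965 genes tested, 1628 were higher (10.9%) and 1011 were lower (6.76%) in the 4 libraries. In 1731 genes (11.6%) each of the 4 libraries lay above each of the other 8, and in 1544 (10.3%) each lay below. The 4 members were not equally far out. TAC dantrolene 1 differed over 2-fold from its group in 5877 genes, TAC control 1 in 5863, sham dantrolene 3 in 3603 and sham control 3 in 1612, while the other 2 libraries of these groups differed from each other over 2-fold in 2722, 1275, 863 and 1078 genes, in the same order. Between pairs of groups the within-group differences of the 14965 genes correlated with Spearman's rho of 0.47 to 0.63, against -0.04 to 0.48 for the differences between the other 2 libraries of the same groups.

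How many genes are higher and how many lower rests on the scaling. With library totals in place of TMM, the median difference of all genes moved by -0.35 log2 units, from the -0.08 given by TMM, and 537 genes were higher and 2999 lower. DESeq2 size factors gave 1710 and 918. Levels and differences below use TMM and are to be read against the median of all genes. Leaving out sham control 3, the member closest to its group, raised the number of genes over 2-fold in either direction to 4132, against 2639 with it, and the number lower to 1896.

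The difference between the sets followed transcript length. Among 1179 genes whose longest annotated transcript is under 1 kb, the median difference was 0.84 log2 units and 36.3% were higher in the 4 libraries, against 1.95% lower. In the 2580 genes of 1 to 2 kb the median was 0.42, with 18.4% higher and 3.10% lower. The median was -0.06 in the 5887 genes of 2 to 4 kb and -0.41 in the 4490 genes of 4 to 8 kb. Among 775 genes over 8 kb it was -0.56, with 6.32% higher and 11.2% lower.

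**Figure D2:**
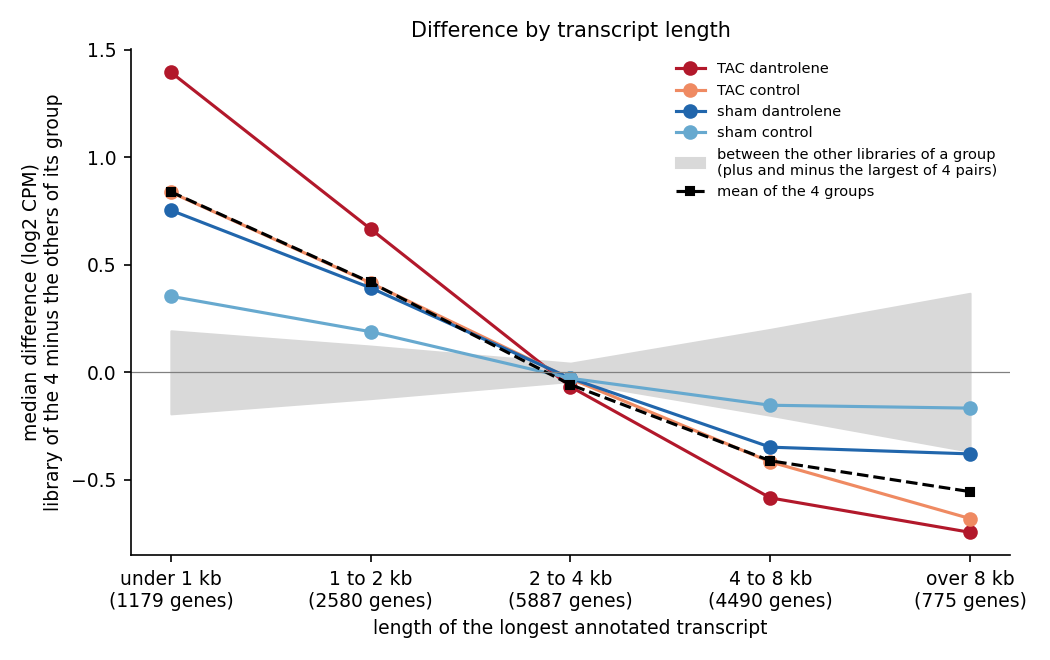
Median within-group difference (log2, member of the set minus the other 2 libraries of its group) by length of the longest transcript in 5 bins, with 1 line per group and a dashed line for their mean; the grey band spans plus and minus the largest median between the other 2 libraries of any group. TAC dantrolene runs between 1.40 under 1 kb and -0.74 over 8 kb, and sham control between 0.35 and -0.17, which over 8 kb stays inside the band of 0.37.

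The slope had the same direction in all 4 groups and differed in size. Under 1 kb the median difference was 1.40 for TAC dantrolene 1, 0.84 for TAC control 1, 0.75 for sham dantrolene 3 and 0.35 for sham control 3. Over 8 kb it was -0.74, -0.68, -0.38 and -0.17 in the same order. Between the other 2 libraries of a group the medians were at most 0.19 in size under 1 kb, smaller than for all 4 members. Over 8 kb they ran between -0.37 and -0.20, so sham control 3 lay nearer to 0 than each of these pairs and sham dantrolene 3 was about level with the farthest of them. Across 14911 genes with an annotated length, Spearman's rho of the mean difference with length was -0.42, which describes genes of shared libraries and is not a test. For single groups it was -0.47 for TAC dantrolene 1, -0.32 for TAC control 1, -0.35 for sham dantrolene 3 and -0.23 for sham control 3. Of the pairs of other libraries, sham control 1 minus sham control 2 reached -0.33, so sham control 3 is not set apart from its group by length alone.

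Length was the feature with the larger partial correlation of those examined. The GC content of a transcript correlated with the difference at 0.34, but the pairs of other libraries reached 0.60 in size. With GC and mean level held, rho for length was -0.36, and with length and mean level held, rho for GC was 0.27. Within 2 to 4 kb the genes with a GC content over 53.2% had a median difference of 0.26, and those under 47.0% had -0.45. Under 1 kb the same GC classes differed less, with medians of 0.92 and 0.67. The length of the 3′ untranslated region correlated at -0.33, and at 0.05 with the whole length, GC and level held. The number of exons gave -0.25 and coding length -0.29. ATTTA motifs per kb of 3′ untranslated region, a sequence found in unstable messengers, gave -0.29, falling to -0.10 with length, GC and level held. The pairs of other libraries reached 0.21 in size for exons, 0.37 for coding length and 0.38 for ATTTA motifs. Length and GC together, in 50 cells of 10 length classes by 5 GC classes, accounted for 20.4% of the variance of the difference between genes. "Beyond length and GC" below means the difference minus the median of a gene's cell.

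In shares of all non-mitochondrial reads, genes of 4 kb or more took 10.3% in TAC dantrolene 1, 11.3% in TAC control 1, 13.5% in sham dantrolene 3 and 16.1% in sham control 3. The other 8 libraries ranged over 16.4% to 23.7%, so all 4 lay below them, sham control 3 narrowly. Genes under 1 kb took 17.7% to 25.2% in the 4 libraries and 11.3% to 19.4% in the other 8, and here sham control 3 (17.7%) overlapped them.

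Genes for the proteins of the cytosolic ribosome stood higher nearly throughout. The products of the 75 cytosolic ribosomal protein genes build the subunits of the translating ribosome. Of these genes 73 had a positive difference, 49 (65.3%) were higher, against 10.9% of all genes, and 0 were lower, against 6.76%. Their median difference was 1.16 log2 units, against -0.08 for all genes, and 0.67 beyond length and GC. Group by group the median was 2.19 for TAC dantrolene 1, 1.17 for TAC control 1, 0.92 for sham dantrolene 3 and 0.41 for sham control 3. Their summed level was 137312, 126010, 86985 and 60008 CPM in these libraries, against 28430 to 52772 CPM in the other 8, without overlap.

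Rpl41, a large-subunit protein gene at chr10:128548114-128549305 (GRCm38) with a longest transcript of 695 bases, stood at 6083 CPM in TAC dantrolene 1, 5747 in TAC control 1, 3306 in sham dantrolene 3 and 1791 in sham control 3, against 548, 1013 and 1306 CPM as lowest, median and highest of the other 8. All 4 libraries lay above the 8, by 1.98 ± 1.01 log2 units (SD over 4 groups). Rps14, a small-subunit protein gene, stood at 6920, 6969, 3822 and 2322 CPM in the same 4 libraries, against 603 to 1449 CPM in the other 8, and Rplp1, of the ribosomal stalk, at 5481, 5312, 2982 and 2040 CPM against 627 to 1377 CPM. The sets overlapped for Rps29, with 414 to 1019 CPM in the 4 libraries and 134 to 564 CPM in the other 8. Ribosomal protein genes have many processed pseudogenes, and how reads that fit several places were counted is not given in the sources used here.

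Other genes of the translation apparatus divided, against 46.4% of all genes with a positive difference, 10.9% higher and 6.76% lower. Of 62 initiation and elongation factors 28 were positive, with a median of -0.13 and 5 lower against 1 higher. Eef1a1, the main elongation factor, stood at 836 to 1064 CPM in the 4 libraries and at 760 to 1709 CPM in the other 8, within their range. Of 77 mitochondrial ribosomal protein genes 66 were positive, with medians of 1.05, 0.53, 0.29 and 0.12 in the 4 groups and 0.46 on average. Of them 10 (13%) were higher, a share near that of all genes, and Mrpl12 stood at 542 to 1162 CPM in the 4 libraries against 255 to 379 CPM in the other 8.

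Nuclear genes of oxidative phosphorylation, the respiratory complexes and ATP synthase, followed. Of 80, 73 were positive and 27 (33.8%) higher, against 46.4% and 10.9% of all genes. The 80 had a median of 0.85, and of 0.25 beyond length and GC. Their summed level was 202088 CPM in TAC dantrolene 1, 170071 in TAC control 1, 126801 in sham dantrolene 3 and 104666 in sham control 3, against 68836 to 100557 CPM in the other 8. Atp5j2, a subunit of ATP synthase, stood at 10890, 9500, 5856 and 3088 CPM in these 4 libraries, against 1186, 2388 and 2777 CPM as lowest, median and highest of the other 8. Ndufb11 of complex I stood at 4563, 3783, 2264 and 1442 CPM against 633 to 1066 CPM, and Uqcr11 of complex III at 4541, 3825, 2513 and 1732 CPM against 690 to 1368 CPM. Both stood apart, while Ndufa4 in sham control 3, at 1472 CPM, lay inside the 318 to 1652 CPM of the other 8.

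**Figure D3:**
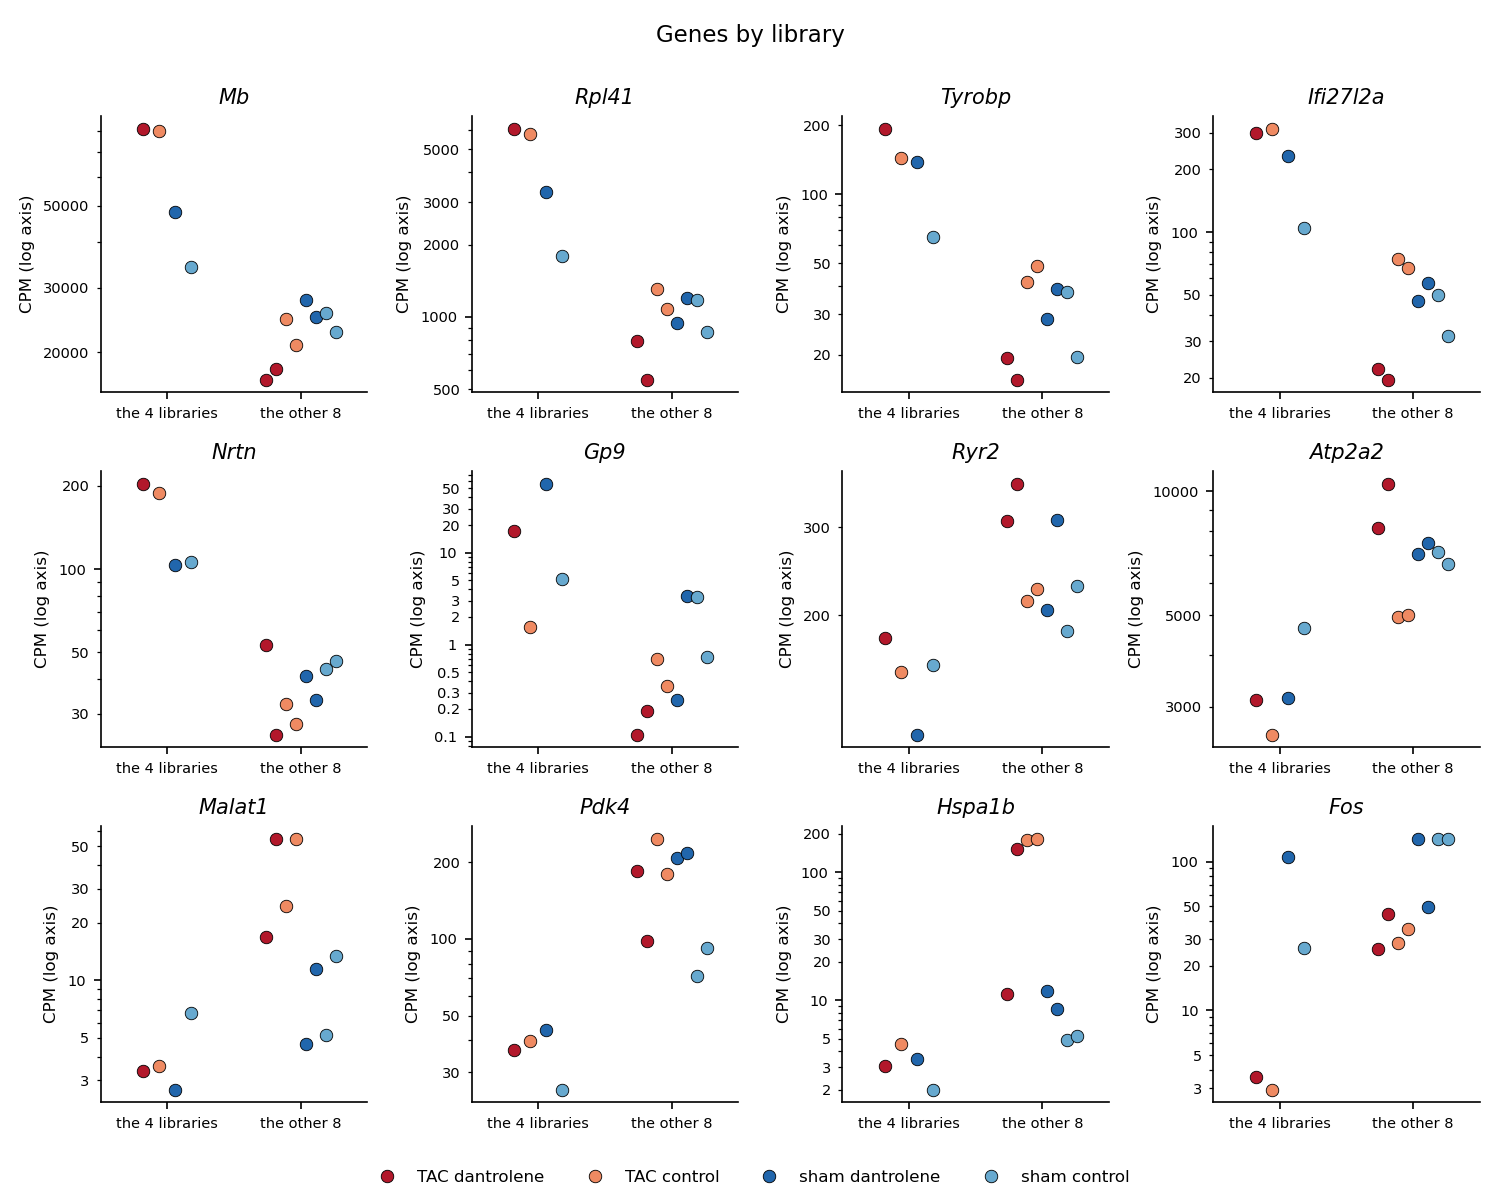
CPM on a log axis of 12 genes, with the 4 members of the set left and the other 8 right; each point is 1 library, coloured by group. Mb, Rpl41, Tyrobp, Ifi27l2a and Nrtn lie above and Ryr2, Atp2a2, Pdk4 and Hspa1b below the other 8 in all 4 members, while Gp9, Malat1 and Fos overlap.

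Within muscle genes the direction divided by transcript length. Among the 14 cardiomyocyte markers, rho of the difference with length was -0.70, a description over 14 genes, and the list's median of 0.19 turned to -0.18 under library totals. Mb, which encodes the oxygen-binding protein myoglobin (chr15:77015487-77050670, longest transcript 1104 bases), stood at 81100 CPM in TAC dantrolene 1, 80020 in TAC control 1, 48180 in sham dantrolene 3 and 34170 in sham control 3. In the other 8 libraries its lowest, median and highest level were 16858, 23627 and 27674 CPM, so the 4 stood above them. Ckm, muscle creatine kinase, stood at 7736 to 12100 CPM in the 4 libraries against 3312 to 4860 CPM, and Myl3, a myosin light chain, at 17220 to 32330 CPM against 9290 to 14366 CPM.

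Long cardiomyocyte messengers stood lower. Ryr2, the cardiac ryanodine receptor to which dantrolene binds (chr13:11553102-12106945, longest transcript 16814 bases), stood at 180 CPM in TAC dantrolene 1, 154 in TAC control 1, 115 in sham dantrolene 3 and 159 in sham control 3, against 186, 227 and 367 CPM as lowest, median and highest of the other 8. The 4 lay below the 8, by -0.73 ± 0.35 log2 units, and by -0.07 beyond length and GC. Atp2a2, the calcium pump of the sarcoplasmic reticulum (chr5:122453513-122502225), stood at 3108, 2569, 3148 and 4670 CPM in the same libraries, against 4966, 7065 and 10435 CPM, a difference of -1.07 ± 0.42 and of -0.48 beyond length and GC. Myh6, the adult alpha myosin heavy chain, stood at 3152, 3714, 4192 and 9106 CPM against 5664 to 18872 CPM, with sham control 3 inside the range. Ttn, which encodes titin, stood at 83.6 to 239 CPM against 157 to 376 CPM and overlapped.

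Of 22 calcium handling genes 17 were negative and 5 (22.7%) lower, against 6.76% of all genes lower. The list's median was -0.59, and -0.18 beyond length and GC, and rho with length within the list was -0.72. The lower members were Atp2a2, the calcium channel subunits Cacna1c and Cacnb2, the sodium-calcium exchanger Slc8a1 and Asph. The 1 higher member was the short S100a1, a calcium-binding regulator, at 1661 to 3833 CPM in the 4 libraries against 843 to 1745 CPM in the other 8, which overlap. Of the 42 very long messengers of muscle and housekeeping genes 36 were negative, with a median of -0.59 that came to -0.03 beyond length and GC.

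**Figure D4:**
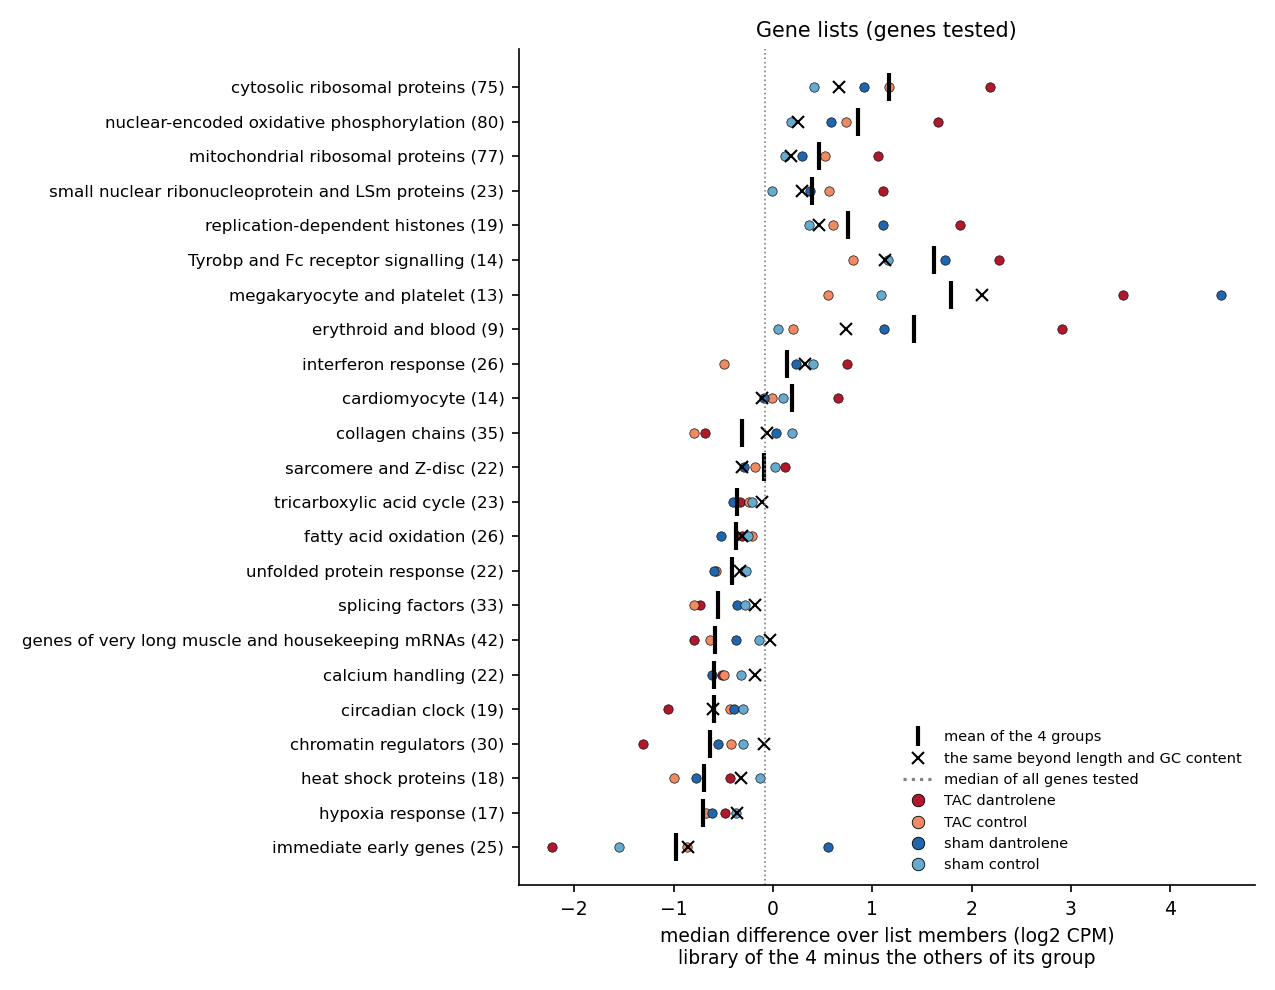
Median difference (log2) of 23 gene lists in each of the 4 groups, their mean over groups, and the mean beyond length and GC. Ribosomal proteins keep 0.67 of their 1.16 beyond length and GC, while the very long messengers keep -0.03 of their -0.59.

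Several groups of genes had a median below that of their length and GC class. Of 18 heat shock proteins, chaperones that fold other proteins, 15 were negative and 4 (22.2%) lower, against 6.76% of all genes lower. The 18 had a median of -0.69, and of -0.32 beyond length and GC. They summed to 7426, 8583, 6213 and 7064 CPM in TAC dantrolene 1, TAC control 1, sham dantrolene 3 and sham control 3, against 7272 to 10243 CPM in the other 8, which overlap with TMM and not with library totals. Hspa8, the constitutive HSC70, stood at 722, 876, 512 and 668 CPM in these libraries, against 1007, 1415 and 1902 CPM as lowest, median and highest of the other 8. Hspa1b, an inducible HSP70, stood at 2.00 to 4.57 CPM against 4.88 to 183 CPM, and its near-identical neighbour Hspa1a, with which it may share reads, at 4.27 to 10.5 CPM against 4.58 to 157 CPM, which overlap. Genes of the unfolded protein response summed to 1124 to 1296 CPM in the 4 libraries and to 1488 to 1953 CPM in the other 8. Of 22, 17 were negative, with a median of -0.42 and -0.33 beyond length and GC, and 2 (9.09%) were lower, near the 6.76% of all genes. They include Hspa5, the chaperone of the endoplasmic reticulum, with 60.0 to 79.2 CPM against 81.0 to 197 CPM.

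Messengers for splicing factors also stood lower. Of 33, 30 were negative and 4 (12.1%) lower, against 6.76% of all genes lower. The 33 had a median of -0.56, and of -0.18 beyond length and GC. They summed to 757, 728, 767 and 808 CPM in the 4 libraries, in the order above, against 919 to 1369 CPM in the other 8. Srsf1, an SR protein that selects splice sites, stood at 6.36, 8.88, 6.16 and 6.39 CPM against 9.22, 14.7 and 33.2 CPM as lowest, median and highest, and Tra2a at 2.32 to 3.78 CPM against 4.17 to 16.2 CPM. Of the proteins that form the spliceosome's small ribonucleoproteins 19 of 23 were positive, against 46.4% of all genes, with a median of 0.39. Of them 3 (13%) were higher, near the 10.9% of all genes, and the short Snrpd2 stood at 169 to 390 CPM against 38.5 to 141 CPM. Among chromatin regulators, 22 of 30 were negative with a median of -0.64, which came to -0.09 beyond length and GC.

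Genes of fuel use divided. Pdk4, the kinase that closes pyruvate dehydrogenase when fat is burned (chr6:5483351-5496309), stood at 36.6 CPM in TAC dantrolene 1, 39.8 in TAC control 1, 44.0 in sham dantrolene 3 and 25.7 in sham control 3, against 71.4, 182 and 247 CPM as lowest, median and highest of the other 8. This was the lower gene with the largest smallest difference over groups, -2.05 ± 0.34 log2 units and -1.50 beyond length and GC. Cd36, a fatty acid transporter, stood at 128 to 184 CPM against 239 to 888 CPM. Etfa, which passes electrons from fatty acid oxidation to the respiratory chain, stood at 85.7, 86.4, 86.1 and 107 CPM in the 4 libraries, against 167, 203 and 362 CPM, although its longest transcript has 1392 bases. In the fatty acid oxidation list 18 of 26 were negative and 5 (19.2%) lower, with a median of -0.37. In the tricarboxylic acid cycle list 16 of 23 were negative and 3 (13%) lower, with -0.36. Of all genes 6.76% were lower. Glycolysis had 13 of 19 positive with 0 higher and a median of 0.04 that turned to -0.33 under library totals, close to the median of all genes in both.

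Antioxidant genes stood in both directions. Gpx4, a glutathione peroxidase that acts on lipids, stood at 7201, 6976, 4051 and 2521 CPM in the 4 libraries against 1007 to 1615 CPM, all above. Cat, which encodes catalase, stood at 51.5, 54.8, 74.9 and 74.5 CPM against 136, 146 and 199 CPM as lowest, median and highest, all below, and Txnrd1, a thioredoxin reductase, at 12.3 to 17.2 CPM against 24.4 to 54.2 CPM. The list's median of 0.25 turned to -0.12 under library totals. Vegfa, the angiogenic growth factor, was lower with 19.2 to 31.2 CPM against 41.1 to 132 CPM, and Mdm2, the ubiquitin ligase of p53, with 4.89 to 6.80 CPM against 12.2 to 28.5 CPM. Cldnd1 had the most even difference of the 12 lower genes chosen by smallest difference over groups, -1.25 ± 0.11, with 6.90 to 7.90 CPM against 15.3 to 23.3 CPM.

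Immediate early genes, which respond within minutes to stimulation and have short-lived messengers, did not move together in the set. Fos stood at 3.56 CPM in TAC dantrolene 1, 2.93 in TAC control 1, 107 in sham dantrolene 3 and 26.3 in sham control 3, against 25.7, 46.9 and 143 CPM as lowest, median and highest of the other 8. Both TAC members lay below every other library and sham dantrolene 3 lay among the higher ones. The list's median was -2.22, -0.87, 0.55 and -1.55 log2 units in the 4 groups, in the same order. On average 21 of 25 were negative and 4 (16%) lower, against 6.76% of all genes lower. Circadian clock genes summed to 346 and 345 CPM in TAC dantrolene 1 and TAC control 1. In sham dantrolene 3 and sham control 3 the sums were 896 and 716 CPM, against 626 to 823 CPM in the other 8. Of 19 clock genes 16 were negative and 4 (21.1%) lower, against 6.76% of all genes lower. The list's medians were -1.05, -0.44, -0.40 and -0.30 in the 4 groups, in the same order, so they were negative in the sham groups also. With each gene averaged over the TAC groups the median was -1.52, and over the sham groups -0.37. By edgeR's interaction of set and surgery, described below, 13 of the 19 had an unadjusted p under 0.05 and 0 were called. Of all 14965 genes 3319 had such a p. Per2, a repressor of the clock, stood at 2.19, 2.58, 9.22 and 8.09 CPM in the 4 libraries against 8.67 to 16.9 CPM. The time of day at which each mouse was sampled is not given in the sources used here, and its part was not tested. Malat1, an abundant nuclear RNA, stood at 3.36, 3.55, 2.69 and 6.73 CPM against 4.63, 15.1 and 54.9 CPM, with sham control 3 inside the range.

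Some transcripts of myeloid cells stood higher. Tyrobp, the adaptor of activating receptors on macrophages (chr7:30413760-30417585, longest transcript 597 bases), stood at 194 CPM in TAC dantrolene 1, 144 in TAC control 1, 138 in sham dantrolene 3 and 65.3 in sham control 3, against 15.6, 33.1 and 48.7 CPM as lowest, median and highest of the other 8. Its difference was 2.12 ± 0.96 log2 units and 1.19 beyond length and GC. A list of 14 genes of Tyrobp and Fc receptor signalling was put together after these values were seen, so its share of higher members is no independent support. Of these genes, 14 were positive and 9 (64.3%) higher, against 10.9% of all genes higher. Their median was 1.62, of which 1.13 was left beyond length and GC, and rho with length within the list was -0.24. Their sum was 676, 544, 627 and 387 CPM in the 4 libraries against 133 to 337 CPM in the other 8. In bulk tissue, a change in the number of cells of a type and a change in RNA per cell cannot be told apart.

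Macrophage markers did not move as a block. The complement genes C1qa, C1qb and C1qc, of about 1 kb, were higher, with C1qa at 415, 334, 310 and 257 CPM in the 4 libraries against 80.2, 119 and 204 CPM as lowest, median and highest of the other 8. Adgre1 (-0.01 log2 units), Csf1r (0.26), Cd163 (-0.29) and Mrc1 (0.32), surface markers with longest transcripts over 3 kb, differed little, and the chemokine receptor Ccr2 was lower (-1.45). Of 15 markers 9 were positive, 4 (26.7%) higher and 1 (6.67%) lower, against 10.9% higher and 6.76% lower of all genes. The list's median of 0.32 turned to -0.05 under library totals. By group it was 0.66 in TAC dantrolene, -0.63 in TAC control, 0.16 in sham dantrolene and 0.39 in sham control. Beyond length and GC the median was 0.33, while within the list the Spearman correlation with length was -0.85. The markers summed to 1293 to 1986 CPM in the 4 libraries and to 551 to 1319 CPM in the other 8, which overlap.

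Other genes with large differences in each group were Wfdc17, Ifi27l2a, Folr2 and Cbr2. Ifi27l2a, an interferon-inducible gene (chr12:103442167-103443680), stood at 298, 314, 231 and 105 CPM in the 4 libraries against 19.6, 48.4 and 74.4 CPM as lowest, median and highest. Folr2, a folate receptor found on tissue macrophages, stood at 57.6 to 96.3 CPM against 15.3 to 36.5 CPM. Of 26 interferon response genes 15 were positive and 8 (30.8%) higher, such as Irf7, Oas1a and Ifi35, while 11 were negative and 0 lower. Of all genes 10.9% were higher and 6.76% lower. The list's median of 0.14 turned to -0.23 under library totals. By group it was 0.75 in TAC dantrolene, -0.49 in TAC control, 0.23 in sham dantrolene and 0.41 in sham control. Nrtn, a neurotrophic factor of the GDNF family (chr17:56751325-56757530), stood at 204, 188, 104 and 106 CPM against 25.2, 37.4 and 53.3 CPM.

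Platelet genes differed most in TAC dantrolene 1 and sham dantrolene 3. Gp9, a subunit of the platelet receptor for von Willebrand factor, stood at 17.3, 1.55, 56.5 and 5.22 CPM in the 4 libraries against 0.105, 0.523 and 3.36 CPM as lowest, median and highest of the other 8. A list of megakaryocyte and platelet genes was put together after such values were seen, so its share of higher members is no independent support. The list had 13 of 13 positive and 7 (53.8%) higher, against 10.9% of all genes higher. Its medians were 3.52, 0.55, 4.51 and 1.09 in the 4 groups. Its sum was 201 CPM in TAC dantrolene 1, 104 in TAC control 1, 526 in sham dantrolene 3 and 95.2 in sham control 3, against 32.6 to 81.3 CPM, above the other 8 with TMM and overlapping them with library totals. Itga2b, the integrin of platelets, reached 142 CPM in sham dantrolene 3 and 3.86 to 15.1 CPM in the other members, against 0.865 to 7.88 CPM. Neutrophil markers summed to 25.4, 16.5, 83.7 and 4.57 CPM in the 4 libraries, in the same order, against 2.47 to 9.47 CPM. Haemoglobin and other blood genes summed to 2363 to 11781 CPM in the 4 libraries and to 849 to 8920 CPM in the other 8, with no separation.

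Schwann cell and neuronal markers stood lower in sum, at 41.0, 48.2, 57.5 and 65.6 CPM in the 4 libraries against 93.4 to 134 CPM. Prnp, a gene that many cell types express, held 29.3 to 52.4 CPM of this in the 4 libraries and 84.1 to 124 CPM in the other 8, and 3 of 8 markers were positive. Fibroblast markers (5 of 14 positive), smooth muscle and pericyte markers (5 of 12) and endothelial markers (8 of 14) had medians between -0.19 and 0.05 over the 4 groups, and the endothelial one turned negative under library totals. These averages hold opposite signs: the fibroblast median was -0.55 in the TAC groups and 0.36 in the sham groups, with -0.04, -1.20, 0.11 and 0.23 in TAC dantrolene, TAC control, sham dantrolene and sham control. The smooth muscle and pericyte median was -0.53 in the TAC groups and 0.30 in the sham groups. The part that cell make-up plays in the difference between the sets was not tested.

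Gene types differed in how many of their members were higher. Among processed pseudogenes 61 of 177 (34.5%) were higher, among genes annotated as TEC, transcripts to be experimentally checked, 49 of 138 (35.5%), among long intergenic noncoding RNAs 82 of 375 (21.9%) and among antisense RNAs 72 of 386 (18.7%). In this order their median differences were 0.79, 0.19, 0.36 and 0.42 log2 units. Beyond length and GC the medians were 0.05, 0.13, 0.22 and -0.07. Protein-coding genes had 1280 of 13463 higher (9.51%) and 948 lower (7.04%). Protein-coding genes took 98.2% to 98.4% of all reads in the 4 libraries and 98.6% to 98.9% in the other 8. Mitochondrial transfer RNAs, which are about 70 bases long, had 7 of 19 higher (36.8%) and 17 positive. The 13 mitochondrial protein genes had 0 higher and 0 lower, with 12 positive on average, but the groups differed. Their median was 2.27 in TAC dantrolene, -0.36 in TAC control, 0.12 in sham dantrolene and 0.31 in sham control. Their sum lay below both other libraries of the group in TAC control 1, sham dantrolene 3 and sham control 3. In TAC dantrolene 1 it was 105944 CPM, against 12820 and 144932 CPM in TAC dantrolene 2 and 3. One of the 13 genes, mt-Co3, stood at 3265 CPM in TAC control 1, at 504, 394 and 47.3 CPM in the other members and at 85.8 to 261 CPM in the other 8.

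A second pattern ran through part of the higher genes. Among the higher genes, 404 (24.8% of the 1628) shared a profile over the 12 libraries with Arfgef1, a gene of vesicle traffic at chr1:10137571-10232670. Arfgef1 had the most close neighbours of the 377 higher genes with a difference over 3 log2 units in sham dantrolene, a rule made after these values were seen. It stood at 77.9 CPM in TAC dantrolene 1, 151 in TAC control 1, 445 in sham dantrolene 3 and 170.7 in sham control 3, against 16.1 to 85.9 CPM in the other 8. In all, 428 genes kept a near-constant ratio to it (SD of the log2 ratio under 0.5).

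**Figure D5:**
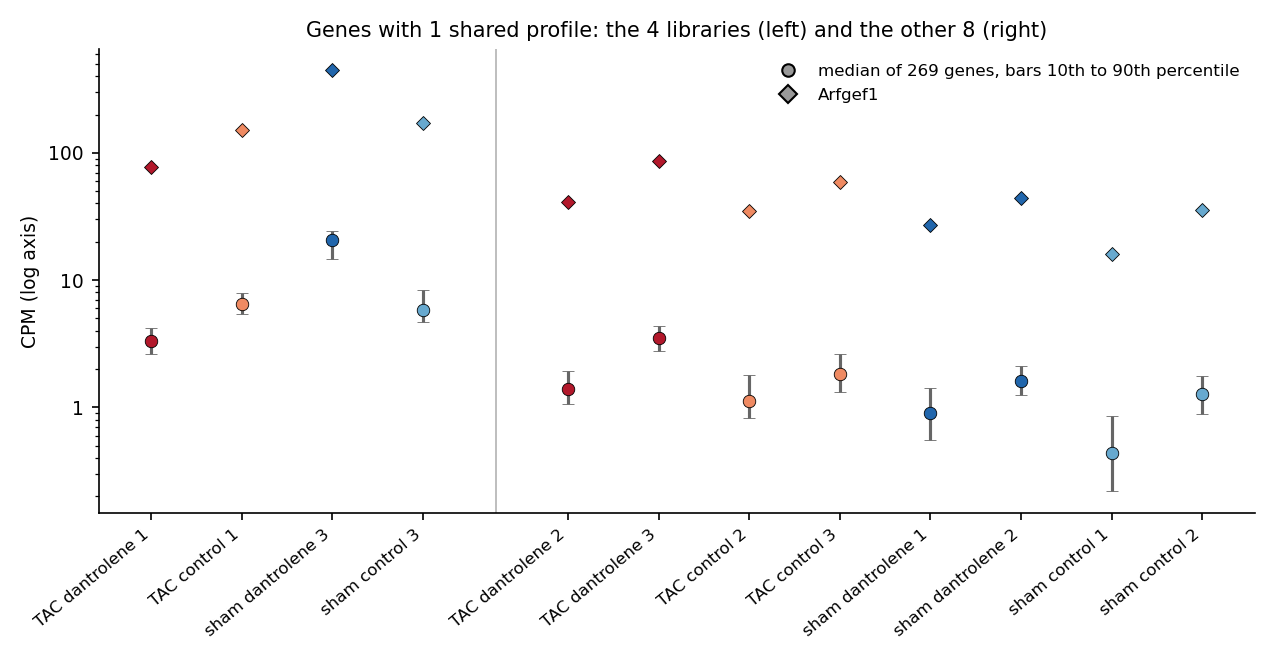
CPM on a log axis of the genes that share the profile of Arfgef1 in each library, with circles for the median of 269 genes of near-equal level, bars from the 10th to the 90th percentile, and diamonds for Arfgef1; the 4 members of the set stand left of the line. Sham dantrolene 3 has a median of 20.7 CPM, and TAC dantrolene 1 at 3.32 CPM lies below TAC dantrolene 3, of the other 8, at 3.51 CPM.

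These genes were of several types. They comprised 279 protein-coding genes, 41 of type TEC, 30 processed pseudogenes, 29 long intergenic noncoding RNAs and 23 antisense RNAs, on 20 chromosomes. Of the 428, 269 lay within 0.5 log2 units of 1 shared level, with a median of 3.32 CPM in TAC dantrolene 1, 6.53 in TAC control 1, 20.7 in sham dantrolene 3 and 5.82 in sham control 3. In the other 8 libraries that median was 0.436 in sham control 1 at the lowest and 3.51 in TAC dantrolene 3 at the highest, so TAC dantrolene 1 did not stand above its group. The transcripts of these 269 genes were 79 to 15571 bases long with 1 to 119 exons. Among them were genes known for other tissues or stages, such as Hoxc5, a homeobox gene, Agtr2, an angiotensin receptor, Sall3, a developmental transcription factor, Themis, a T cell gene, Adam18, a testis gene, and Sspo, a secreted protein of the developing brain. Hoxc5 stood at 3.20, 7.28, 22.1 and 8.65 CPM in the 4 libraries and at 0.437 to 3.45 CPM in the other 8, and Agtr2 at 3.56, 6.31, 23.1 and 6.80 CPM against 0.494 to 3.23 CPM. The files do not tell where in these genes the reads lie.

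Without these 428 genes, 1224 genes were higher and rho with length was -0.44. The median length of the higher genes was 1486.5 bases without them, 1750.5 with them and 4105 for the lower genes. The share higher was then 8.25% for TEC genes (8 of 97) and 7.74% for protein-coding genes (1020 of 13184). For processed pseudogenes it was 21.1% (31 of 147), for long intergenic noncoding RNAs 15.3% (53 of 346) and for antisense RNAs 14.0% (51 of 363). Of the 428 genes 94.4% were themselves counted as higher, so leaving them out lowers these shares by construction.

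An interaction term in edgeR's quasi-likelihood fit gave how the set's difference varied between TAC and sham hearts. The set was chosen from the same gene levels, so the p-values of this and of the next term are no independent test, may be too small, and are given to describe the fit. The interaction of set and surgery passed an adjusted p of 0.05 in 21 of 14965 genes (0.14%), 16 with a more positive difference in the TAC groups (0.107%) and 5 with a more negative one (0.0334%). Unadjusted p was under 0.05 in 3319 genes, of which 1585 were positive (10.6%) and 1734 negative (11.6%). The count rests on single libraries. It was 0 without TAC dantrolene 1, TAC control 1, TAC control 3, any of sham dantrolene 1, 2 and 3, sham control 1 or sham control 3, and 1 without TAC control 2, but 45 without TAC dantrolene 3, 353 without sham control 2 and 1334 without TAC dantrolene 2. With the replicate number as a block it was 0, and DESeq2 called 1047.

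The genes called with a more positive difference in TAC were mostly short transcripts already higher in the set. Mb had an interaction of 1.33 ± 0.21 log2 units (SE, edgeR adjusted p = 0.0487), with differences of 2.22 and 1.82 in TAC dantrolene and TAC control and of 0.88 and 0.51 in sham dantrolene and sham control. Rps27, Rpl15 and Mrpl20 of the ribosomes, Atp5j2 of ATP synthase and Myeov2 were called in the same direction. Of 75 cytosolic ribosomal protein genes 72 had a positive interaction, against 46.6% of all genes, and 2 were called, and of 80 oxidative phosphorylation genes 79 were positive and 1 was called. By length, the median difference under 1 kb was 1.16 in the TAC groups and 0.51 in the sham groups, and over 8 kb it was -0.73 and -0.29.

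The transfer RNA genes mt-Ta, mt-Tn, mt-Tc and mt-Ti were also called. The first 3 lie next to each other on the mitochondrial genome, at 5018 to 5086, 5089 to 5159 and 5192 to 5257. mt-Ta stood at 25.3 and 27.2 CPM in TAC dantrolene 1 and TAC control 1, against 0.778 to 1.94 CPM in the other 4 TAC libraries, and at 9.92 and 4.84 CPM in sham dantrolene 3 and sham control 3, against 2.59 to 5.79 CPM in the other 4 sham libraries. Its interaction was 3.26 ± 0.43 (edgeR adjusted p = 0.0318).

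The 5 genes called with a more negative difference in TAC were Col1a2, Col14a1, Thbs2, Serpina3n and Egr1. Col1a2, a chain of type I collagen, stood at 62.8 and 69.5 CPM in TAC dantrolene 1 and TAC control 1 against 119 to 243 CPM in the other 4 TAC libraries, and at 142 and 116 CPM in sham dantrolene 3 and sham control 3 against 84.7 to 105 CPM in the other 4 sham libraries. The interaction was -1.81 ± 0.23 log2 units (edgeR adjusted p = 0.0318). Of 35 collagen chain genes 7 had a positive interaction and 2 were called. Of 14 fibroblast markers, a list that also holds Col1a2, 1 had a positive interaction and 8 an unadjusted p under 0.05, and their part in these values was not tested. Thbs2, a matrix thrombospondin, and Serpina3n, an acute-phase protease inhibitor, were likewise below the other TAC libraries and above the other sham libraries.

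The interaction of set and drug passed the threshold in 0 of 14965 genes (0%) by edgeR, with 1858 at an unadjusted p under 0.05 and a smallest adjusted p of 0.293, and in 66 by DESeq2. It was 2 genes without TAC dantrolene 2 and 1 without TAC control 2. Cd9, which encodes a membrane tetraspanin, had the smallest p, with an interaction of 1.65 ± 0.27 log2 units. It stood at 61.7 CPM in TAC dantrolene 1 against 27.5 and 30.9 CPM in its group, and at 36.5 CPM in TAC control 1 against 57.1 and 53.3 CPM.

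The set also bears on what the study compared. It was entered in the fit as a term. Since it was chosen as the libraries that lay far out in these same values, the term lowers the remaining spread by construction, and the number of calls gained with it supports nothing about the set. With 3 mice a group, p-values measure the spread between these samples. With the term, TAC control against sham control called 21 genes (0.14%), 11 higher and 10 lower, against 0 without the term, with 2319 at an unadjusted p under 0.05. Acta1, the skeletal actin of the fetal gene programme, rose by 3.03 ± 0.45 log2 units (SE, edgeR adjusted p = 0.034), with 887, 3708 and 2614 CPM in TAC control 1 to 3 against 268, 267 and 314 CPM in sham control 1 to 3. TAC control 1, the member of the set, had the lowest of the 3 TAC levels. Fmod, which encodes the matrix proteoglycan fibromodulin, rose by 4.17 ± 0.52 (edgeR adjusted p = 0.0142), with 8.48, 12.7 and 15.9 CPM in TAC control 1 to 3 against 0.791, 0.541 and 0.756 CPM, and Sorcs2, a sorting receptor, fell by 2.24 ± 0.32 on the log2 scale (edgeR adjusted p = 0.034). This count also rests on single libraries: it was 566 without TAC control 1, 43 and 36 without TAC dantrolene 1 and 2, 4 without sham dantrolene 2, 2 without sham control 1 and 0 without TAC control 2, TAC control 3, sham control 2 or sham control 3. DESeq2 called 448, and edgeR called 484 without the 4 libraries and 109 with the replicate block.

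TAC dantrolene against TAC control called 0 genes by edgeR with the set as a term (0%), with 1290 at an unadjusted p under 0.05, and 50 by DESeq2. Without TAC dantrolene 1 it called 58, without TAC control 1 46, and without the 4 libraries 478. The smallest adjusted p was that of Acta1 (-3.34 ± 0.45 log2 units, edgeR adjusted p = 0.0888), with 230, 312 and 146 CPM in TAC dantrolene 1 to 3 against 887, 3708 and 2614 CPM in TAC control 1 to 3. Sham dantrolene against sham control called 0 genes by edgeR (0%) and by DESeq2, with 269 at an unadjusted p under 0.05, and the same 0 without the 4 libraries. Pdk4 had the smallest p among genes with a positive change there (1.17 ± 0.26 log2 units, edgeR adjusted p = 1), with 207, 217 and 44.0 CPM in sham dantrolene 1 to 3 against 71.4, 92.1 and 25.7 CPM in sham control 1 to 3, and in each group the member of the set was the lowest.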

How the data were processed

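Polyadenylated RNA was sequenced from 12 left ventricles, 3 per group. The authors deposited read counts for 25319 genes and FPKM values (reads per kilobase of transcript and per library size) for 25258 genes. TopHat2, bcl2fastq, edgeR and the build GRCm38 stand in the submitters' processing notes, without versions, and the way strand and reads of several places were counted is not given in the sources used here. GENCODE vM21 annotation matched 25116 gene IDs. All columns were used, FPKM only for an alternative and for implied length.

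The 4 libraries, and the gene lists, were chosen with earlier results of these data known. Counts were filtered with filterByExpr in edgeR 4.0.16 (minimum count 10, minimum total 15, under R 4.3.3), which kept 14965 genes and dropped 0.0418% of counts. Log2 CPM used TMM and a prior count of 2. Tests used edgeR's quasi-likelihood F test on group means plus the set, with set by surgery and set by drug terms added for the interactions, and Benjamini-Hochberg adjustment over all 14965 genes at 0.05. The fits were tested on simulated data. Of 100 genes given a 2-fold change, 16% were called for set by surgery and 17% for set by drug. The group comparisons called 48% to 59% of such genes. Between 6 and 12 unchanged genes were called in each comparison. Most 2-fold interactions would therefore be missed. DESeq2 1.42.0, other filters, scalings, length measures, a replicate block and leaving out each library were alternatives. Total counts ran between 25766378 and 38363106 reads per library, and precision is lower for genes of few reads.

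Named genes were the 12 higher and 12 lower genes with the largest smallest difference over groups at a mean of at least 5 CPM, a set of index genes, up to 4 members per list and the smallest p-values of each test. Called interaction genes, other list members, mt-Co3 and examples of the shared profile were named after their values were seen, as were 2 lists (Tyrobp and Fc receptor, platelet), added to the first 49, the profile itself and the correction for length and GC.

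No pair of libraries of the same group agreed within sampling noise (smallest chi-square per gene 32.5). Pairs across groups were not compared in this way. Nothing in the labels says that a replicate number marks a shared litter or day. Deviations of same-numbered libraries correlated at 0.556, 0.300 and 0.613 between the TAC groups and at 0.465, 0.366 and 0.672 between the sham groups. With the set as a term these were -0.231, -0.0740 and 0.384, and 0.205, -0.0524 and 0.101. Between TAC control and sham control they were -0.294, 0.283 and -0.304 without the term and 0.172, -0.102 and 0.425 with it. The numbers were therefore not taken to pair the samples once the set was in the fit.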

Additional observations from a re-analysis of the deposited data

Results flagged for a closer look

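The difference between the 4 libraries and the other 8 differed between TAC and sham hearts in 21 genes, by the interaction test of edgeR (adjusted p between 0.0318 and 0.0493). The set was chosen from the same gene levels, so this is no independent test, the count fell to 0 or 1 without most single libraries, as given above, and each value below is the TAC minus the sham difference in log2 units, with a positive sign where the 4 libraries stood further above their groups in TAC.

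The mitochondrial transfer RNAs had the larger values, 3.32 for mt-Ti, 3.28 for mt-Tc, 3.26 for mt-Ta and 3.12 for mt-Tn. Genes of ribosomes followed, with 1.69 for Rps27, 1.35 for Rpl15 and 1.38 for Mrpl20, and so did 1.61 for Atp5j2 and 1.33 for Mb. Pla2g5, a secreted phospholipase, had 1.77, and Ramp1, a partner of calcitonin-type receptors, had 1.79. Ramp1 stood at 35.7 and 43.3 CPM in TAC dantrolene 1 and TAC control 1 against 7.35 to 9.15 CPM in the other 4 TAC libraries, and at 24.2 and 30.8 CPM in sham dantrolene 3 and sham control 3 against 16.2 to 22.9 CPM in the other 4 sham libraries. The others with a positive value were Gm12167 (2.15), Tmem141 (1.69), Myeov2 (1.59), Dctpp1 (1.51) and Tmem204 (1.40).

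Negative values were found for Egr1 (-2.73), an immediate early transcription factor, Serpina3n (-2.61), Col14a1 (-1.98), Col1a2 (-1.81) and Thbs2 (-1.72). Egr1 stood at 20.4 and 17.2 CPM in TAC dantrolene 1 and TAC control 1 against 140.5 to 282 CPM in the other 4 TAC libraries, and at 452 and 198 CPM in sham dantrolene 3 and sham control 3 against 352 to 725 CPM in the other 4 sham libraries. Col14a1, a collagen of fibroblasts, differed in the sham groups instead, with 36.5 and 33.6 CPM in sham dantrolene 3 and sham control 3 against 6.98 to 9.92 CPM, and 12.9 and 21.8 CPM in TAC dantrolene 1 and TAC control 1 against 13.3 to 18.0 CPM.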

How the results depend on the processing

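With library totals, the medians of 8 gene lists changed sign, and lower genes outnumbered higher ones. No named gene counted as higher or lower changed sign in the alternatives, and sign changes of the other named genes were not counted. Of 3701 values of 206 named genes, 3671 moved by less than their spread over groups and 30 by more, and of 80 settings for the results above, not counting those that left out 1 library, 25 moved a count or value past its limit; where no construction shows it, the cause was not tested. Sham control 3 and TAC control 2 were 0.422 of the whole range apart on the first component, and 0.266 with FPKM. Genes over 2-fold numbered 1410 at a mean of at least 5 CPM (869 higher, 541 lower), a smaller set of genes. With library totals 537 were higher and 2999 lower, and the coefficient fitted with the replicate block gave 1626 lower. The correlation with length was -0.31 with no filter and -0.26 with the median transcript length. Leaving out 1 library gave 2172 to 4132 genes over 2-fold, 1411 to 2236 higher, 761 to 1896 lower, and rho of -0.43 to -0.36.

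The set by surgery count was 1625 with no filter, 0 with the replicate block, 5 with 1 interaction term, 52 without the genes of the shared profile (an alternative chosen after seeing the data, as was the single term) and 1047 by DESeq2, which gave no adjusted p for 2031 genes. The set by drug count was 258 with no filter and 66 by DESeq2. TAC control against sham control gave 590 with no filter, 109 with the replicate block, 0 with no term for the set, 484 without the 4 libraries and 448 by DESeq2, with no adjusted p for 1161 genes. TAC dantrolene against TAC control gave 206 with no filter, 478 without the 4 libraries and 50 by DESeq2, and sham dantrolene against sham control 36 with no filter. The block, from numbers not shown to pair the samples, left the set by drug and both dantrolene counts at 0. Leaving out 1 library gave 0 to 1334 genes for set by surgery, 0 to 2 for set by drug, 0 to 566 for TAC control against sham control, 0 to 58 for TAC dantrolene against TAC control and 0 for sham dantrolene against sham control.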
